A study of Mus musculus with 6 samples.

Results

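Long noncoding RNAs in activating mouse hepatic stellate cells are described here through 7 gene models, out of 35999 gene symbols with an expression value. A gene was taken when the deposited sheet of gene types called it a long noncoding RNA or one of its subclasses, matched on gene name, and when its TPM reached 5 or more in no fewer than 2 of the 6 libraries. TPM is an abundance corrected for transcript length and scaled to a fixed total in each library. The sheet gave such a type to 9924 names, of which 78 (0.786%) were symbols of the expression table. Of these 78 symbols, 59 were above 0 in at least 1 library, 19 were listed at 0 in all 6, and 7 met the threshold. The 7 are AW011738, Gm10134, Gm10382, Gm10762, Gm21860, Gm2619 and Gm47283.

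The cells were primary hepatic stellate cells from mouse liver, sampled on days 1, 4 and 7, with 2 libraries on each day. Replicate numbers are 2 and 3 on day 1 and 1 and 2 on the later days. The labels give no strain, sex, age, treatment or genetic change for any group. They do not say from which event the days were counted, or whether libraries of a day came from separate animals or cultures. The p-values below therefore measure library-to-library spread, and that spread may be technical.

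Hepatic stellate cells store vitamin A in the healthy liver and turn into contractile, matrix-producing myofibroblasts when they are activated, which also happens when they are kept on plastic. Long noncoding RNAs are transcripts that are not known to be translated. Some act in the nucleus on chromatin or splicing, some carry small RNAs in their introns, and many are made from the opposite strand of a coding gene or beside its promoter, so that the position of such a locus is part of its description.

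The label long noncoding RNA applies to these 7 only loosely. In GENCODE release M21, which lies on the same GRCm38 genome build as the deposited values, 6 of the 7 were typed as protein-coding predictions and Gm2619 as a transcribed unprocessed pseudogene. The same held for most of the wider set, since 69 of the 78 symbols were typed as protein-coding in that release. With types from GENCODE M21 in place of the sheet, 0 genes met the rule. RefSeq lists AW011738 as a long noncoding RNA. Among the 81 well-known long noncoding RNAs named in 6 lists of roles (hosts of small nucleolar RNAs, nuclear and X-inactivation RNAs, imprinted RNAs, microRNA hosts, mesenchymal RNAs and stress or immune RNAs), 1 had a symbol in the table. It was Snhg11, a host of small nucleolar RNAs, at 2.78 and 3.29 TPM on day 1, 2.27 and 1.18 TPM on day 4, and 2.82 and 2.45 TPM on day 7. The other RNAs of those lists are not analysed here. The 7 loci are therefore called gene models below.

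None of the 7 models overlapped an annotated small RNA gene, and none had one within 10 kb, so none was marked as a possible carrier of small RNA reads. Their combined abundance was 0.0124% and 0.0128% of all TPM on day 1, 0.0080% and 0.0084% on day 4, and 0.0073% and 0.0069% on day 7.

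Several of these models share sequence with other genes, and the stretches that show this are given first. Gm2619 lies on chromosome 1 (chr1:85156809-85327306, GRCm38, minus strand, 2 transcripts, 764 exonic bases). Bases 1 to 300 of its 651-base transcript are shown 5′ to 3′ because most of them also occur in Sp100, and capitals mark bases within words of 25 bases shared with Sp100 transcripts, 296 of the 300.
Gm2619: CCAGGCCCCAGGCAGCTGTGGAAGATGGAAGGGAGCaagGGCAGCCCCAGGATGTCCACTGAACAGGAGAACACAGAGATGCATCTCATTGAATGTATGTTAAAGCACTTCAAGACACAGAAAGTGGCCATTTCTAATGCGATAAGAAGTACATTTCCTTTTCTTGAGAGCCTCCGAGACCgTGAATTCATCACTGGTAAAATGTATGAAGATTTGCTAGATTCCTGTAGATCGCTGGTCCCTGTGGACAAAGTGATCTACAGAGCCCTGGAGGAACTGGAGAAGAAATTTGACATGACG
Over both transcripts, 57.03% of the 25-base words of Gm2619 occurred in transcripts of 6 other genes, with every transcript read 5′ to 3′. The shares were 48.92% for Gm7592, 46.35% for Gm7582, 36.76% for Sp100, 33.51% for Gm7609, 11.22% for Gm2666 and 9.59% for Gm15433. Sp100 encodes a protein of nuclear bodies that is known to be induced by interferon. The other 5 lie on the same chromosome and are typed as pseudogenes in GENCODE M21, although the sheet types Gm7609 as protein-coding. How the authors' quantification divided reads among them is not given in the sources used here, so the values of Gm2619 are uncertain.

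Gm21860 and Gm47283 lie on the Y chromosome. Gm21860 is a single exon of 309 bases (chrY:90754513-90754821, minus strand), and its first 300 bases are shown because every one of them occurs in other loci, which the capitals mark.
Gm21860: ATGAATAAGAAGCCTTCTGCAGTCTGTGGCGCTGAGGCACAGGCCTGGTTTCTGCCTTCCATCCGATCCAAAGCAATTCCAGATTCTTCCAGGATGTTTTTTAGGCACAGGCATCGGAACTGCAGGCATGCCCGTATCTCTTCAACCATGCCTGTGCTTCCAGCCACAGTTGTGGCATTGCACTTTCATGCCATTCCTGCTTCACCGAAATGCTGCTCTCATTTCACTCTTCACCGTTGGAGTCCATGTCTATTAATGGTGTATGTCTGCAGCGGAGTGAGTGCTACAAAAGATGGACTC
The transcript of Gm21748 (chrY:90838869-90839177) has 0 differing bases over the same 309, and the deposited TPM of both was equal in 6 of 6 libraries. All words of Gm21860 also occurred in G530011O06Rik on chromosome X (chrX:169975043-169978917), which lies within Mid1, a ubiquitin ligase gene. Gm47283 (chrY:90784738-90816464, plus strand, 4 transcripts, 1124 exonic bases) shared 49.61% of its words with Gm21887 on chromosome X (chrX:170009659-170019281), the locus that the sheet names Erdr1. Signal at Gm21860 cannot be told apart from signal at its copies, and part of the signal at Gm47283 may be shared with Gm21887.

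Gm10134 is a single-exon model on chromosome 2. Words of 25 bases from it were found in transcripts of 3028 other genes, and 37.68% of its words were shared, so its values are uncertain.

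AW011738 is a single exon of 1848 bases on chromosome 4 (chr4:156203304-156205151, plus strand). It lies head to head with Isg15 (chr4:156199424-156200818, minus strand), whose product is a ubiquitin-like modifier induced by interferon, and the GENCODE starts are 2486 bases apart. Both RefSeq promoter windows on GRCm38.p6, from 250 bases before to 50 bases after the start, are shown for comparison, each on the strand of its gene. Capitals mark a motif of GAAA, any 2 bases and GAAA again, the core letters of an interferon-stimulated response element, searched on both strands with overlapping matches counted.
AW011738, chr4:156203034-156203333, plus strand: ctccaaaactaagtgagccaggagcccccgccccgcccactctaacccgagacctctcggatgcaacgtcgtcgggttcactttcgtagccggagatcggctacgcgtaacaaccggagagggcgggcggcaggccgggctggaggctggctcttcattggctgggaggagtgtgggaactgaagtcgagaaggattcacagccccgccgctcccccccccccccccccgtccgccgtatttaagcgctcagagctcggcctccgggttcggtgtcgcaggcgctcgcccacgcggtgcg
Isg15, chr4:156200769-156201068, minus strand: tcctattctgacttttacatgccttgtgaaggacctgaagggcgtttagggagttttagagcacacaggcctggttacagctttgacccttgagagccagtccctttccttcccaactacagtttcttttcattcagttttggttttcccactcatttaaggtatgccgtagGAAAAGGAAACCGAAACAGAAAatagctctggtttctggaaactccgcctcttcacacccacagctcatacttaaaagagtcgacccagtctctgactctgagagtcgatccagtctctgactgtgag
The Isg15 window held 3 overlapping matches, which began 78, 72 and 66 bases before the start. The AW011738 window held 0 matches. The motif occurred in 1131 of 32851 RefSeq promoter windows of the same length, 3.443%. GC content was 67.33% with 32 CpG dinucleotides in the AW011738 window and 46.33% with 6 in the Isg15 window. A match describes letters in a window and is not evidence of binding.

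Gm10762 (chr2:128966593-128967725, minus strand, 1133 bases) overlaps the start of Zc3h6, a zinc finger gene, on the opposite strand by 324 exonic bases. The libraries were stranded, but whether strand was used in the quantification is not given in the sources used here. Reads from either gene of this overlapping pair may therefore have been assigned to the other. The same limit on strand applies to Gm10382, a single exon of 1233 bases on chromosome 5.

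Levels were compared first across the models. TPM is per length, so levels of different genes can be set beside each other, and the levels below are a description because the models were chosen by these TPM levels. The means over 6 libraries were 35.2 TPM for Gm10134, 17.6 for Gm21860, 15.6 for Gm47283, 10.3 for Gm2619, 5.03 for Gm10382, 4.95 for Gm10762 and 3.94 for AW011738. Gm10134 was the highest of the 7 in every library. Gm21860 and Gm47283 overlapped each other in range, as did Gm10382 and Gm10762, so neither pair can be ordered. Gm10134, Gm21860 and Gm47283 were above 5 TPM in all 6 libraries, whereas AW011738 passed only through its 2 day 1 libraries and Gm2619 through those and 1 day 4 library. A model that passed through day 1 alone was bound to be higher there than elsewhere, which limits what a count over the 7 can show. Just inside the threshold were Gm10382, with a second-highest value of 5.64 TPM, and Gm10762, with 6.29 TPM. Just outside were 1700030C10Rik, with 13.8 TPM in day 7 replicate 1 and 3.55 TPM as its next value, and Gm5129, with 5.87 TPM in day 1 replicate 3 and 1.67 TPM as its next value.

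**Figure D1:**
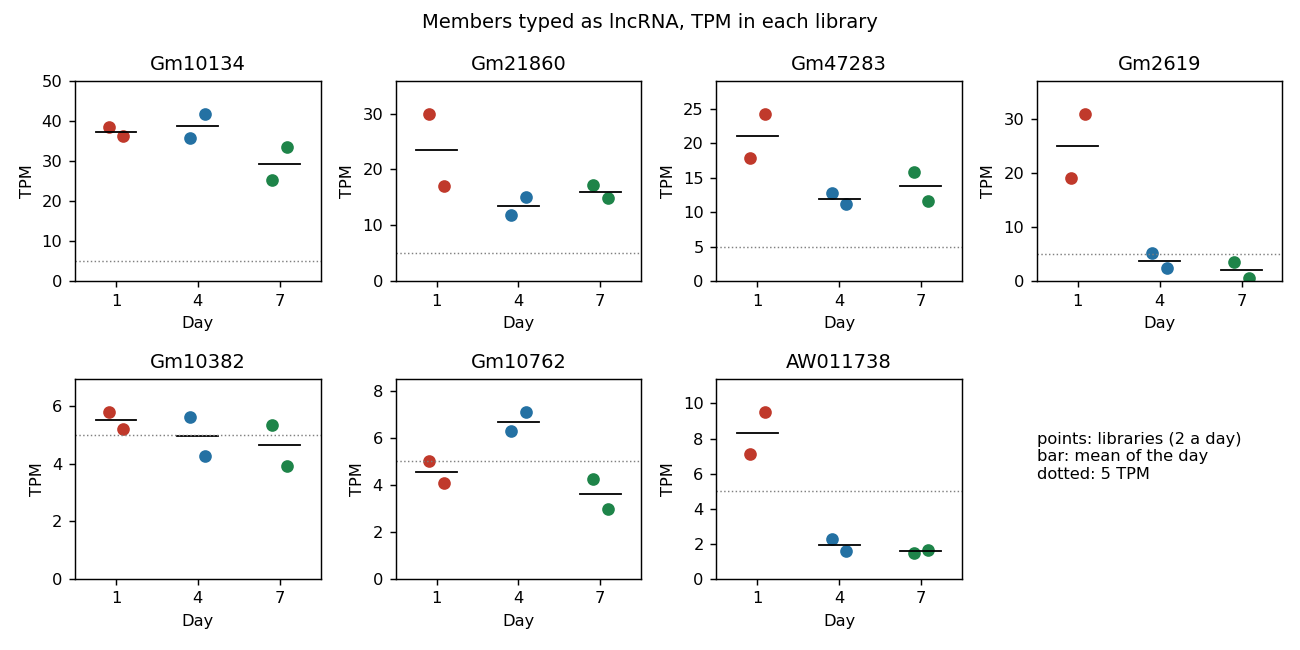
TPM (y axis, linear and from 0, a separate scale for each model) against day (x axis) for the 7 gene models. Points are libraries, bars are means of 2 libraries and the dotted line is the threshold of 5 TPM. Gm2619 and AW011738 had both day 1 libraries above all 4 later libraries, while Gm10134 and Gm10382 had overlapping values on days 1 and 4.

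Which of these models changed during activation was tested with limma on log2(TPM + 1) over all 14373 genes that reached 1 TPM in 2 or more libraries, and changes with a Benjamini-Hochberg adjusted p under 0.05 were called. From day 1 to day 4, 3 of the 7 models were called lower (AW011738, Gm2619 and Gm47283) and 0 were called higher, with 4 at an unadjusted p under 0.05. Of all tested genes, 11.6% were called lower and 25% higher in that comparison, 36.6% in all. From day 1 to day 7, 2 models were called lower (AW011738 and Gm2619) and 0 higher, against 16.8% and 24.7% of all genes, 41.4% together. From day 4 to day 7, limma called 0 of the 7 in either direction, with 2 at an unadjusted p under 0.05, against 0.16% of all genes called lower and 0.306% called higher, 0.466% together. The median log2 change of the 7 was -0.72, -0.19 and -0.48 for day 4 against day 1, day 7 against day 4 and day 7 against day 1, beside medians over all genes of 0.11, -0.05 and 0.04. The comparisons with day 1 share the day 1 libraries and are not independent of each other. An F test of limma over the 3 days called 2 of the 7, AW011738 with an adjusted p of 0.0022 and Gm2619 with 0.0117, against 37.2% of all genes. Neither of the 2 would have met the rule without its day 1 libraries. A difference between days was thus favoured by how they were chosen, and these calls are a description.

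**Figure D2:**
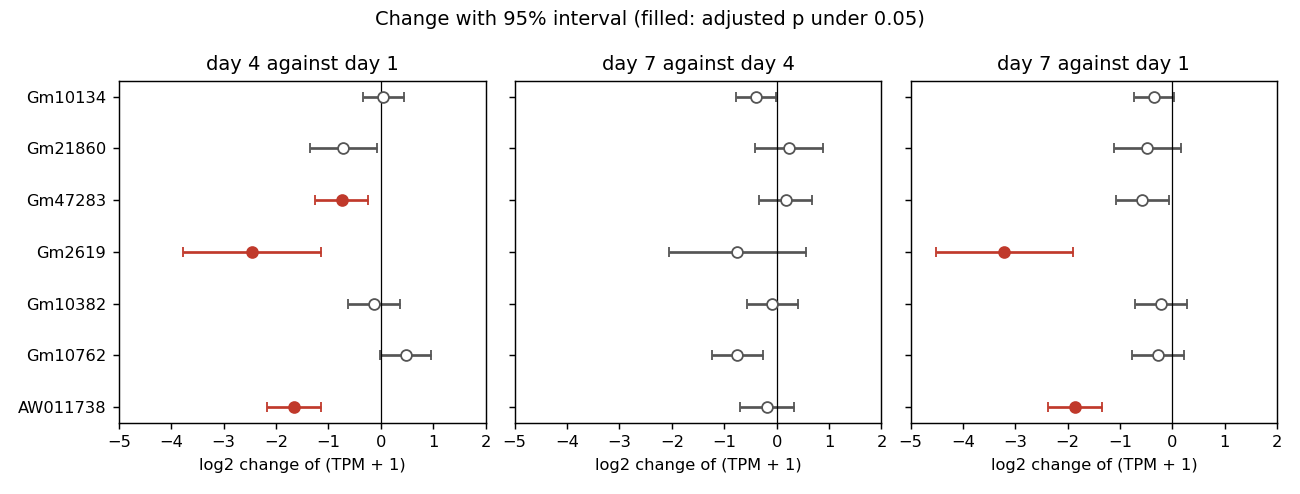
Log2 change of TPM + 1 (x axis) with its 95% interval for each gene model (y axis) in the 3 comparisons. Filled red points have a limma adjusted p under 0.05, and they are AW011738 and Gm2619 in both comparisons with day 1 and Gm47283 in day 4 against day 1. No model is filled in day 7 against day 4.

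AW011738 was measured at 7.11 and 9.51 TPM on day 1, 2.29 and 1.59 TPM on day 4, and 1.49 and 1.62 TPM on day 7. Both day 1 libraries were above all later ones, and the day 4 and day 7 values overlapped. The mean fell from 8.31 ± 1.69 TPM to 1.94 ± 0.491 TPM (SD, n = 2 each) between days 1 and 4, a log2 change of -1.66 with an SE of 0.21 and a limma adjusted p of 0.0023. Day 7 against day 1 gave a log2 change of -1.85 with a limma adjusted p of 0.0013. AW011738 met the rule only through its day 1 libraries, so a higher day 1 value follows from how it was chosen, and these changes are a description and not support for a fall.

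The neighbour Isg15 was at 291 and 461 TPM on day 1, 15.8 and 16.7 TPM on day 4, and 27.9 and 25.7 TPM on day 7. It was higher on day 1 than later, as AW011738 was, with a log2 change of -4.41 between days 1 and 4 and a limma adjusted p of 6.8e-05. The libraries did not keep a fixed ratio of the pair. AW011738 amounted to 2.44% and 2.06% of Isg15 on day 1, 14.4% and 9.56% on day 4, and 5.36% and 6.32% on day 7. Isg15 was lower on day 4 than on day 7 in both libraries, whereas the values of AW011738 on those days overlapped. The other flanking genes, Agrn, a matrix proteoglycan gene, and Perm1, a muscle gene regulator, also had both day 1 values above all later ones. Agrn was at 14.5 and 21.9 TPM on day 1 and between 9.12 and 10.03 TPM later.

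Gm2619 was measured at 18.98 and 30.8 TPM on day 1, 5.20 and 2.39 TPM on day 4, and 3.54 and 0.634 TPM on day 7. Both day 1 libraries were well above all later ones, and days 4 and 7 overlapped. The mean fell from 24.9 ± 8.34 TPM to 3.79 ± 1.99 TPM (SD, n = 2 each) by day 4, a log2 change of -2.46 with an SE of 0.54 and a limma adjusted p of 0.0165. The call was lost without day 1 replicate 3 (-2.12, limma adjusted p 0.0682) and without day 4 replicate 2 (-2.02, limma adjusted p 0.0897). Day 7 against day 1 gave a log2 change of -3.21 with a limma adjusted p of 0.0056. It ranged from -3.95 to -2.47 with each library left out in turn. Gm2619 met the rule through both day 1 libraries and 1 day 4 library, so a high day 1 value is part of how it was chosen. These changes are therefore a description and not support for a fall.

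The genes whose sequence Gm2619 shares also had their day 1 values above the later ones. Sp100 was at 169 and 262 TPM on day 1, 58.1 and 53.1 TPM on day 4, and 47.6 and 48.4 TPM on day 7. Sp100 is among the gene models that overlap small RNA genes, so its values may hold reads of such RNAs. Gm7609 was at 68.2 and 74.9 TPM on day 1, 10.2 and 9.60 TPM on day 4, and 7.48 and 5.19 TPM on day 7. In both genes the lower day 1 library was well above the highest later one. All 6 sharing genes were called lower on day 4 than on day 1, as were 11.6% of all tested genes. Log2 changes ranged from -2.73 for Gm7609 to -1.65 for Gm15433, with limma adjusted p from 0.0002 to 0.0048. How reads were divided among these genes is not given, so the 6 calls may not be independent. Gm2619 amounted to 11.2% and 11.7% of the Sp100 TPM on day 1, 8.94% and 4.49% on day 4, and 7.44% and 1.31% on day 7. Whether the lower later values of Gm2619 come from reads of its relatives was not tested.

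**Figure D3:**
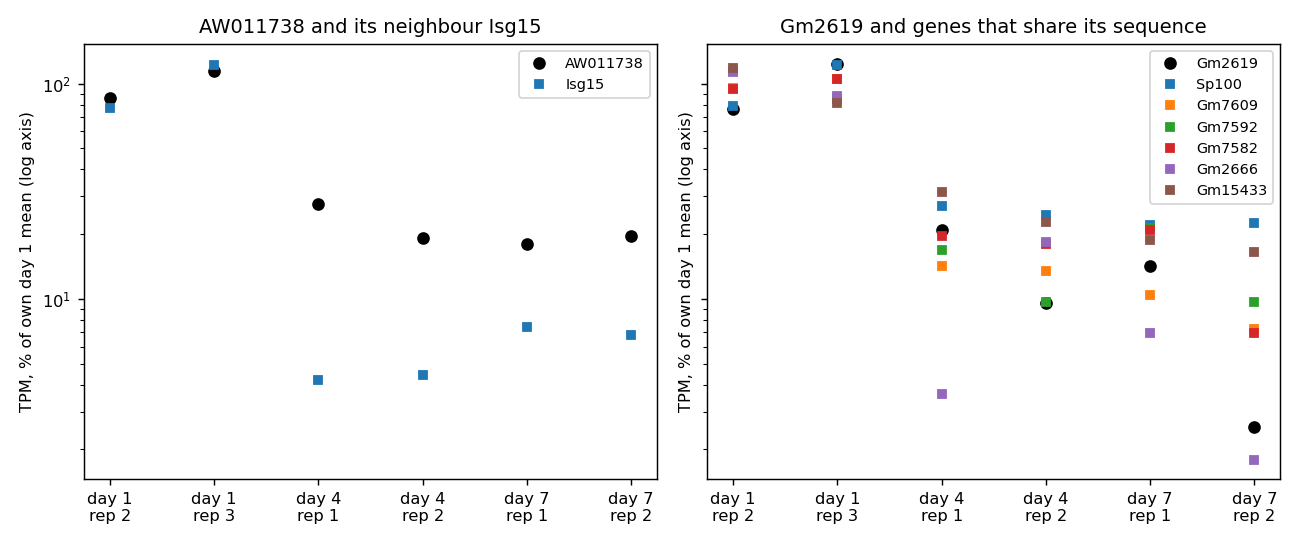
TPM as a percentage of each gene's own day 1 mean (y axis, log scale) in each of the 6 libraries (x axis), for AW011738 with Isg15 on the left and for Gm2619 with the 6 genes that share its sequence on the right. All genes plotted have both day 1 points above every later point, and Isg15 lies below AW011738 in the 4 later libraries.

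The models placed on the Y chromosome moved less. Both share sequence with loci on chromosome X, so their values cannot be read as Y-linked signal. Gm47283 was measured at 17.8 and 24.2 TPM on day 1, 12.8 and 11.2 TPM on day 4, and 15.9 and 11.6 TPM on day 7. Day 1 was above the later days without overlap, and days 4 and 7 overlapped. The log2 change between days 1 and 4 was -0.75 with an SE of 0.21 and a limma adjusted p of 0.0346, and between days 1 and 7 it was -0.58 with a limma adjusted p of 0.0673. The day 4 call was lost without day 1 replicate 3 (limma adjusted p 0.0953), without day 4 replicate 1 (0.0980), without day 4 replicate 2 (0.164) and with no filter on low values (0.0767). The day 7 change was called without day 1 replicate 2 (-0.79, limma adjusted p 0.0226) and after quantile normalization (-0.63, limma adjusted p 0.0487).

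Gm21860 was measured at 29.9 and 17.1 TPM on day 1, 11.9 and 15.0 TPM on day 4, and 17.1 and 14.8 TPM on day 7. Day 1 replicate 2 stood alone at the top, and the other day 1 library (17.08 TPM) was level with the higher day 7 library (17.12 TPM). The log2 changes of -0.72 (day 4 against day 1) and -0.48 (day 7 against day 1) were not called, with limma adjusted p of 0.0784 and 0.188. Without day 1 replicate 3 they were -1.10 and -0.87, and without day 1 replicate 2 they were -0.33 and -0.095. The size of both changes thus depended on which day 1 library was kept. The identical copy Gm21748 gave the same values and adds no information.

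Genes of the Y chromosome proper had the opposite order of days. Over Ddx3y, Eif2s3y, Uty and Kdm5d, which encode a helicase, a translation factor and histone demethylases, the day 1 libraries ranged from 11.6 to 52.1 TPM and the later libraries from 19.2 to 80.2 TPM. Ddx3y was at 52.1 and 40.9 TPM on day 1, 80.2 and 79.0 TPM on day 4, and 79.0 and 76.0 TPM on day 7. On the X side, Mid1 was at 13.7 and 21.1 TPM on day 1, 13.2 and 10.7 TPM on day 4, and 7.20 and 6.11 TPM on day 7. Gm21887 was at 6.77 and 6.24 TPM on day 1, 9.29 and 4.75 TPM on day 4, and 3.64 and 2.06 TPM on day 7. Gm47283 thus did not have the order of days of Ddx3y, nor that of Gm21887, whose values on days 1 and 4 overlapped.

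The remaining 3 models were not called in any comparison with TPM as deposited. Gm10134 was measured at 38.5 and 36.2 TPM on day 1, 35.8 and 41.7 TPM on day 4, and 25.3 and 33.4 TPM on day 7. Days 1 and 4 overlapped and both day 7 values were the lowest of the 6. The log2 change between days 1 and 4 was 0.05 with a 95% interval from -0.34 to 0.43 and a limma adjusted p of 0.831, and its sign turned with median-ratio scaling (-0.029), quantile normalization (-0.070) and rescaling without repeat-like gene models (-0.30). Its upstream neighbour on the same strand is Gbgt1, a glycosyltransferase gene. Gbgt1 was at 17.1 and 22.0 TPM on day 1, 20.5 and 18.9 TPM on day 4, and 15.4 and 17.7 TPM on day 7. Gm10134 was thus above Gbgt1 in every library, at 164% to 226% of its TPM.

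Gm10382 was measured at 5.79 and 5.21 TPM on day 1, 5.64 and 4.28 TPM on day 4, and 5.36 and 3.91 TPM on day 7. The 3 days overlapped. The log2 change between days 1 and 4 was -0.13 with a 95% interval from -0.62 to 0.36 and a limma adjusted p of 0.629.

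Gm10762 was measured at 5.03 and 4.07 TPM on day 1, 6.29 and 7.11 TPM on day 4, and 4.26 and 2.96 TPM on day 7. Both day 4 libraries were above the other 4, and days 1 and 7 overlapped. This was the one model of the 7 with its highest mean on day 4 and a separation of that day from both others. Gm10762 met the rule through both day 4 libraries and 1 day 1 library, so a high day 4 value is part of how it was chosen. The log2 changes were 0.48 from day 1 to day 4 (limma adjusted p 0.110) and -0.75 from day 4 to day 7 (limma adjusted p 0.224, unadjusted p 0.0091). Neither was called. Zc3h6 was at 0.807 to 1.32 TPM, below Gm10762 in every library.

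TPM is a share of a fixed total, and the content of that total differed between days. Satellite-like gene models, 12 models that resemble the repeat locus Gm10800, held 17.4% and 26.2% of all TPM on day 1 and 0.0594% to 0.0913% later. Models that overlap small RNA genes held 5.71% to 6.87% on day 1 and 11.2% to 12.2% later. With the satellite-like models left out and TPM rescaled, the median log2 change of all genes moved from 0.11 to -0.21 between days 1 and 4 and from 0.04 to -0.29 between days 1 and 7. Under that scaling, 4 models were called lower on day 4, with Gm21860 added at -1.06 (limma adjusted p 0.0201). For day 7 against day 1, 5 were called lower, with Gm10134 (-0.70, limma adjusted p 0.0174), Gm21860 (-0.82, limma adjusted p 0.0346) and Gm47283 (-0.92, limma adjusted p 0.0267) added. Under the same scaling, 3464 of 14632 tested genes were called lower for day 4 against day 1 and 4639 of 14632 for day 7 against day 1, so more genes of all kinds were called lower than with TPM as deposited (1667 and 2410 of 14373).

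**Figure D4:**
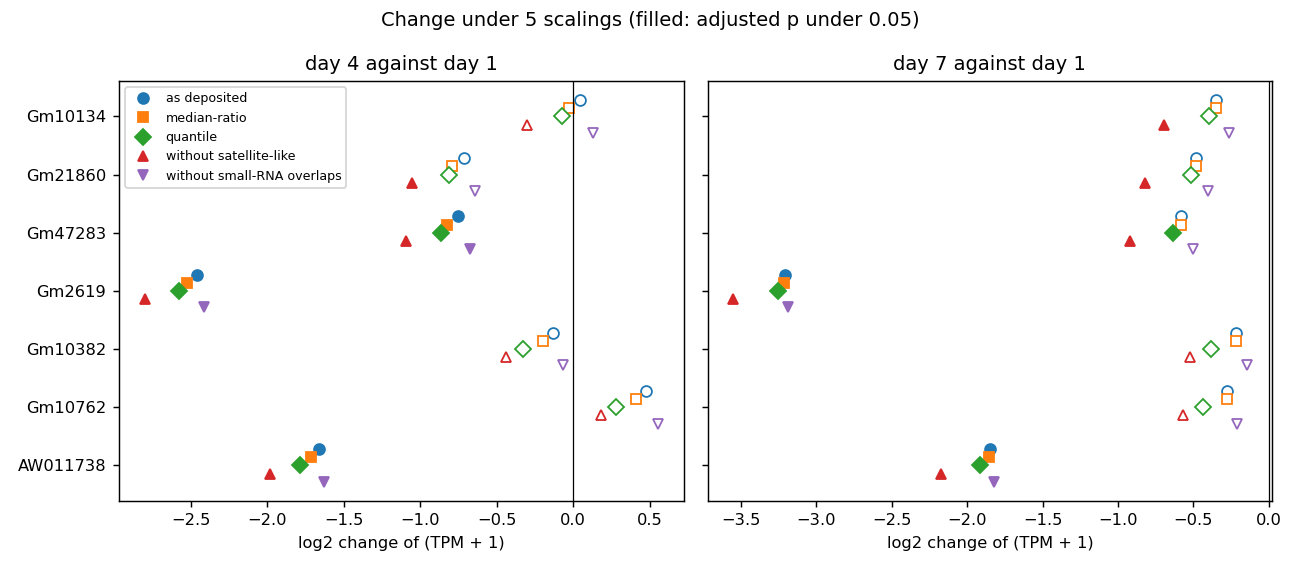
Log2 change of TPM + 1 (x axis) for each gene model (y axis) under 5 scalings of the same TPM values, for day 4 against day 1 on the left and day 7 against day 1 on the right. Filled symbols have a limma adjusted p under 0.05. AW011738 and Gm2619 are filled under all 5 scalings in both panels, and the rescaling without satellite-like models gives the lowest value for each model. Neither AW011738 nor Gm2619 would have met the rule without its day 1 libraries, so their fills are a description.

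Levels of cell type markers also differed between days. Of 12 myofibroblast markers, 12 were called higher on day 4 than on day 1, and their summed level was 121 and 104 TPM on day 1 and between 2034 and 2665 TPM later. Of 11 tested markers of quiescent stellate cells, 6 were called higher, with sums over the list of 141 and 173 TPM on day 1 and 187 to 223 TPM later. Of 12 macrophage markers, 10 were called higher, with sums of 10533 and 13456 TPM on day 1 and 26101 to 28369 TPM later, so macrophage RNA was present in all libraries. Of 7 tested hepatocyte markers, 6 were called lower, with sums of 56.1 and 46.3 TPM on day 1 and 2.13 to 5.50 TPM later. Of 5 tested T, NK and B cell markers, 3 were called lower, with sums of 89.7 and 83.9 TPM on day 1 and 6.90 to 26.4 TPM later. Of 8 endothelial markers, 4 were called higher and 2 lower, and of 8 mesothelial markers and 8 proliferation markers, 6 and 8 were called higher. All these calls are for day 4 against day 1, where 25% of all tested genes were called higher and 11.6% lower. Within these lists the one marker listed at 0 was a hepatocyte marker in day 7 replicate 2. Hepatocyte and lymphocyte markers thus moved in the same direction as AW011738 and Gm2619, and macrophage markers in the other direction. The part of these cells in the results for the models was not tested. In bulk libraries, fewer cells of a type and less RNA per cell cannot be told apart.

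Proteins known to work with noncoding RNA, and imprinted protein-coding genes, were read from 4 further lists for day 4 against day 1. Of 8 core proteins of small nucleolar ribonucleoproteins, 1 was called higher and 1 lower, with a median log2 change of -0.26. Of 12 nonsense-mediated decay factors, which degrade many noncoding transcripts, 1 was called higher and 4 lower, with a median of -0.33. Of 10 paraspeckle proteins, 0 were called higher and 3 lower, with a median of -0.07. Of 12 tested imprinted protein-coding genes, whose loci often hold noncoding RNAs, 6 were called higher and 3 lower, with a median of 0.51. The shares over all tested genes were 25% higher and 11.6% lower, and the median was 0.11.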

How the data were processed

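RNA sequencing was done on 6 libraries. Stranded libraries were built from TRIzol-extracted total RNA depleted of ribosomal RNA, per the labels' protocols. The authors deposited TPM once per gene symbol and library, together with a sheet of gene types. Per the submitters' processing notes, StringTie 1.3.3b, HISAT2 2.0.5 and Trimmomatic were used, and the builds named were mm10 and GRCm38. The gene annotation and the strand setting are not given in the sources here. Since TPM keeps no depth, depth is unknown and no counting error was computed.

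The gene models and all lists were chosen with earlier results of these data known. Positions, types and transcripts came from GENCODE M21 and promoter windows from RefSeq (GRCm38.p6). Shared sequence was counted in words of 25 bases, and a model was called satellite-like when 10% or more of its 20-base words occurred in Gm10800. Genes that reached 1 TPM in 2 or more libraries were kept, 14373 in all, and limma 3.58.1 (R 4.3.3) was run on log2(TPM + 1) (trend and robust variances, day as a factor, 3 residual degrees of freedom). A fold on this scale understates the change of low genes. Benjamini-Hochberg adjustment ran over all tested genes within each comparison. All 7 models are named; other genes are named as neighbours or sharers of sequence, or as Y-linked genes. Batches are not named in the labels, so none was compared. Alternatives were other pseudocounts, filters, scalings and variance models, the replicate number as a block, fits restricted to 2 days, each library left out, and other thresholds and gene types. Some neighbours and sequences are not reported here.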

Additional observations from a re-analysis of the deposited data

How the results depend on the processing

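Day 4 against day 1 gave 3 models called lower, and 1 to 3 with each library left out in turn, the lowest without day 4 replicate 2. Rescaling without satellite-like models gave 5 models called lower for day 7 against day 1 and 5 called by the F test. Of all 14632 genes tested under that scaling, 4639 were called lower for day 7 against day 1 and 5779 by the F test. The rule found 12 models at 2 TPM, 4 at 10 TPM and 8 when matched on gene ID. It found 0 with GENCODE M21 types. The last 2 settings were chosen after seeing the data. Signs turned for Gm10134 in day 4 against day 1 with median-ratio scaling (-0.029), quantile normalization (-0.070) and rescaling without satellite-like models (-0.30), and its range with each library left out was -0.060 to 0.15. With libraries left out, Gm10382 ranged from -0.30 to 0.031 in day 4 against day 1 and from -0.27 to 0.10 in day 7 against day 4, and Gm47283 from -0.044 to 0.38 in day 7 against day 4. None of these was called, and the cause was not tested.

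With the replicate number as a block, 4 models were called lower on day 4 and 3 on day 7, each against day 1. In day 7 against day 4, 0 were called. The added model was Gm21860 (-1.07, limma adjusted p 0.0317, and -0.84, limma adjusted p 0.0494). Of all 14373 tested genes, 1128 and 1705 were called lower in the 2 comparisons with day 1 under that setting. Same-numbered libraries of days 4 and 7 had a correlation of 0.0042 in their deviations from the day means. With 2 libraries a day, both numbers must give the same value, and day 1 was not included. The correlation therefore cannot decide whether same-numbered libraries were paired.

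Counts over all genes moved more. The 67 calls of day 7 against day 4 became 4 with no filter, 37 with quantile normalization, 31 with the block, 729 in a fit of only those days, and 0 to 4 with a library left out. The 5257 calls of day 4 against day 1 ranged from 2221 to 7405 and the 5956 of day 7 against day 1 from 2786 to 7752 with a library left out. Of the calls in day 4 against day 1, 3590 were higher and 1667 lower. Rescaling without satellite-like models gave 2067 and 3464, and quantile normalization 2839 and 2504. With 2 libraries a day and unknown depth, small changes of models near 5 TPM cannot be resolved.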

Other observations

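Below the threshold, 12 further symbols typed as long noncoding RNA in the sheet had at least 1 TPM in 2 libraries and were tested with limma over all 14373 genes. From day 1 to day 4, 1 was called higher and 0 lower, and from day 1 to day 7, 1 was called higher and 1 lower. Over all tested genes, 25% were called higher and 11.6% lower in the first comparison and 24.7% and 16.8% in the second, so these counts do not set the 12 symbols apart. Gm10638 was at 0.300 and 0.525 TPM on day 1, 1.81 and 1.44 TPM on day 4, and 1.88 and 0.996 TPM on day 7, with a limma adjusted p of 0.0394 for day 4 against day 1. Gm10642 was at 0.508 and 0.243 TPM on day 1, 2.06 and 0.974 TPM on day 4, and 1.72 and 1.57 TPM on day 7, with a limma adjusted p of 0.0360 for day 7 against day 1. Gm26558 was at 2.21 and 2.49 TPM on day 1, 1.44 and 1.56 TPM on day 4, and 0.552 and 0.912 TPM on day 7, with a limma adjusted p of 0.0133 for day 7 against day 1. These 3 are given as values only, since they were chosen after their values were seen. In 1700030C10Rik, day 7 replicate 1 alone reached 13.8 TPM, with the other 5 libraries between 0.701 and 3.55 TPM.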
